A study of Homo sapiens with 5 samples.

Results

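The genes described here encode the machinery that copies DNA, and the question was where, and how efficiently, the chromosome around each of them itself initiates replication. They are 48 genes taken by name from the GENCODE gene records on hg38, of 20033 protein-coding genes on the same chromosomes, and they fall by role into 14 licensing genes, 12 firing genes and 22 elongation genes. For each gene the origins that overlap it, or that lie within 2 kb of its 5′ end, were taken from 4 lists. This gave 50 origins of the 23905 in the 3-hour ini-seq 2 list and 23 of the 10181 in the 15-minute list. It also gave 210 peaks of the 147657 in the SNS-seq list of the 0.5 to 2 kb fraction and 263 of the 184966 in that of the 2 to 4 kb fraction.

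Ini-seq 2 starts replication in a test tube. The EJ30 line comes from a human bladder carcinoma. Its cells were arrested late in G1 phase with mimosine, and their nuclei were incubated in cytosolic extract of HeLa cells, a human cervical carcinoma line, with Br-dUTP for 3 hours or for 15 minutes. Newly copied DNA carries 1 heavy and 1 light strand (HL), and unreplicated DNA stays light on both strands (LL). The efficiency of an origin is HL/(HL + LL), where each count of reads is first scaled to the total reads of its library. SNS-seq instead maps short nascent strands recovered from EJ30 cells, here of 2 sizes, against total genomic DNA of the same line.

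Replication begins with licensing, in which the origin recognition complex binds DNA in G1 phase and, with CDC6 and CDT1, loads the MCM helicase in an inactive form. Firing follows in S phase, when the kinase of CDC7 and DBF4 and a set of firing factors recruit CDC45 and the GINS complex to the MCM ring and switch the helicase on. Elongation then needs primase, the replicative polymerases, the sliding clamp with its loader, single-strand binding protein, and the enzymes that join the fragments of the lagging strand. Many of these genes are known targets of E2F factors, which raise their transcription as cells enter S phase.

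Each condition is represented by 1 list, and the 3-hour list pools 2 biological replicates. No test between conditions is possible, and the values below are a description. Intervals in parentheses are exact Clopper-Pearson 95% intervals of a share of genes, which cover counting error only. Over the lists, 3-hour efficiencies run from 0.8 to 1 with a median of 0.873, so a gene without an origin is a gene where nothing passed the caller, not one where initiation was shown to be absent. The list was divided into 3 classes of equal size, the low class (below 0.842), the medium class and the high class (above 0.9065). The lists hold no read counts, and the depth behind an origin is unknown.

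Sequence directly upstream of the 5′ ends is shown for the members with the highest and the lowest efficiency in each role, and for CDC6 and ORC1, licensing genes with no 3-hour origin there. The runs are read 5′ to 3′ on the strand of the gene, end at the base before the 5′ end of the gene record, and were cut back where another annotated exon begins. Capitals mark 3 motifs on either strand, namely the CCAAT box, the GC box GGGCGG and the E2F letters, which are TTTNNCGC with C or G at each N. None of the E2F letters falls in the runs shown.
MCM2 (chr3:127598268-127598409, plus strand): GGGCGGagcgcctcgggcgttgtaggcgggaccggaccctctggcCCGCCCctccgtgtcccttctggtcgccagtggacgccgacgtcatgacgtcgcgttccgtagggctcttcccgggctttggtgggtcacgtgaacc
ORC2 (chr2:200963681-200963980, minus strand): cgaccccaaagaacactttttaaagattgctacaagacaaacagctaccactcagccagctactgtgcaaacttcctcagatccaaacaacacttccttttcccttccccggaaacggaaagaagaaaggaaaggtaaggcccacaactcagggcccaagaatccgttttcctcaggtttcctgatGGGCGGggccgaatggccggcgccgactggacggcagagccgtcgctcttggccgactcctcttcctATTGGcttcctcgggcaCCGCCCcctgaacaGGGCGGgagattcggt
GINS1 (chr20:25390836-25391007, plus strand): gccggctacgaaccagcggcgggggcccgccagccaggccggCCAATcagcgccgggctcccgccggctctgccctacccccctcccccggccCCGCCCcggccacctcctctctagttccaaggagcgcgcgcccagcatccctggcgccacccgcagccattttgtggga
CDC45 (chr22:19479203-19479456, plus strand): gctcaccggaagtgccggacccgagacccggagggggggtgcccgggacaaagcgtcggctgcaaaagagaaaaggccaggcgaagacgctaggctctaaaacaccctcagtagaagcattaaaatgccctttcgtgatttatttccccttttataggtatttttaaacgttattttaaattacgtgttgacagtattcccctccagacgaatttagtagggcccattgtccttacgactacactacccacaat
POLE (chr12:132687377-132687586, minus strand): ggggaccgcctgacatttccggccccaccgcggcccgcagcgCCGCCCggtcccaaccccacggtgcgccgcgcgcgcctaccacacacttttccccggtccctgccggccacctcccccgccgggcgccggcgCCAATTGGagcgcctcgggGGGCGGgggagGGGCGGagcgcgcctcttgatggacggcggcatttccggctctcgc
RFC4 (chr3:186807059-186807358, minus strand): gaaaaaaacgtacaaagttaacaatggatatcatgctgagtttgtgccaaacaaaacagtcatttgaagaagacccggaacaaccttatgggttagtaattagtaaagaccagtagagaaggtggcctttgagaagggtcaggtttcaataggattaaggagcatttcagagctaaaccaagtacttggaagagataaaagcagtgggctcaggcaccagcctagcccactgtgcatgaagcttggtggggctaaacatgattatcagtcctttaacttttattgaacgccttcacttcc
CDC6 (chr17:40287579-40287878, plus strand): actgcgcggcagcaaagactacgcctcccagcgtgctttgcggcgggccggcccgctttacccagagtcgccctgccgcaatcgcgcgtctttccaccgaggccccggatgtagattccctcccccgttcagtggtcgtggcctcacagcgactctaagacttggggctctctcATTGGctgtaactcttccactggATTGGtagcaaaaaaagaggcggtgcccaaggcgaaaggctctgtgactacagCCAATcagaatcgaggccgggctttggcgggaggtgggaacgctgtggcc
ORC1 (chr1:52404424-52404601, minus strand): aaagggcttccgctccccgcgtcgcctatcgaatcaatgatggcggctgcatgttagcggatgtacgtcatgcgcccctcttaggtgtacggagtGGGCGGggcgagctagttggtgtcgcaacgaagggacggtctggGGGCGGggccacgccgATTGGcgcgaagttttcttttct
The runs of the most efficient gene of each role, MCM2, GINS1 and POLE, held 70.4%, 76.2% and 77.6% GC. Those of the least efficient gene of each role, ORC2, CDC45 and RFC4, held 55.7%, 48.4% and 42.0%. The runs of CDC6 and ORC1 lay between, at 61.7% and 61.2%. These runs are not like stretches. Those of MCM2, GINS1 and POLE have 142, 172 and 210 bases, and those of ORC2, CDC45 and RFC4 have 300, 254 and 300. The records of GINS1, CDC45 and RFC4 begin 16.7 kb, 463 bp and 576 bp before the start of the annotated representative transcript.

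A 3-hour origin lay within 2 kb of the 5′ end in 38 of the 48 members (79.2%, 65.01 to 89.5%), where the share over all protein-coding genes was 57.5%. At 15 minutes 21 members had one (43.8%, 29.5 to 58.8%), close to the 40.4% of all protein-coding genes. A high-class 3-hour origin was found at 21 members (43.8%, 29.5 to 58.8%), against 31.4% of all protein-coding genes. An SNS-seq peak of either fraction lay at 42 members (87.5%, 74.8 to 95.3%), where 77.7% of all protein-coding genes had one. Both of these intervals include the share over all protein-coding genes. Taken apart, the 0.5 to 2 kb fraction had a peak at 38 members (69.7% over all protein-coding genes) and the 2 to 4 kb fraction at 41 members (75.6% over all protein-coding genes). Every 15-minute origin at a member's 5′ end overlapped the 3-hour origin of that gene. This is not particular to the members. Of the 8096 protein-coding genes with a 15-minute 5′ origin, 7854 also had a 3-hour one, counted whether or not the 2 overlapped.

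The 38 efficiencies ran from 0.828 to 0.988 with a median of 0.909, beside 0.913 over the 11520 protein-coding genes with a 3-hour 5′ origin. By class, 21 were high (55.3%, beside 54.6% over those 11520 genes), 14 medium (36.8%, beside 34.1%) and 3 low (7.89%, beside 11.2%). Once an origin was present, its class was thus distributed much as over all protein-coding genes. The origins themselves were short, with a median length of 700 bp against 900 bp over all such genes. Of the 38, 28 contained the 5′ end of the gene record (73.7%), nearly the same share as over all such genes (74.0%).

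**Figure D1:**
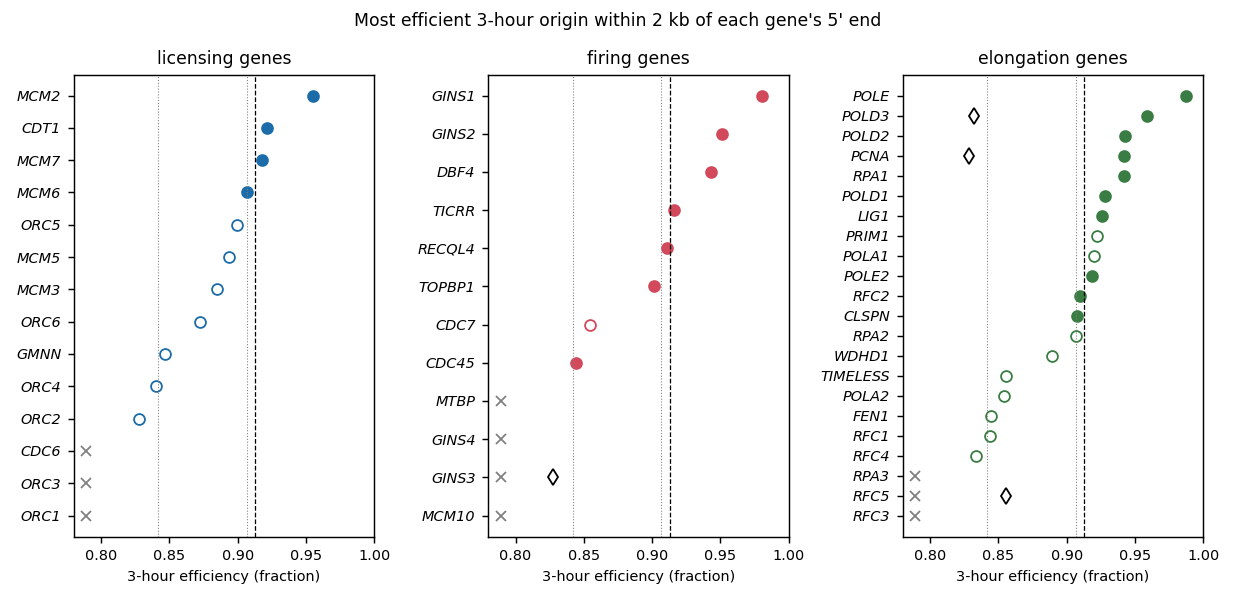
Efficiency, HL/(HL + LL) from scaled read counts, of the most efficient 3-hour origin within 2 kb of the 5′ end of each gene, by role. Filled circles also had a 15-minute origin, open circles did not, grey crosses left of 0.8 are genes with no 3-hour origin there, black diamonds are the origins at the MANE Select start of 4 genes whose record begins far upstream, dotted lines bound the classes and the dashed line is the median of 0.913 over all protein-coding genes. Open circles lie mainly on the left, and PRIM1 and POLA1 are the high-class exceptions.

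In 5 members the gene record begins far from the start of the MANE Select transcript, the annotated representative transcript, and there the 2 positions gave different origins. The distance was 16.7 kb for GINS1, 97.4 kb for GINS3, 98.7 kb for POLD3, 6.67 kb for PCNA and 3.12 kb for RFC5. The efficient origin counted for GINS1 (0.981) also held the 5′ end of ABHD12, a lipid hydrolase gene, that of POLD3 (0.959) held the 5′ end of LIPT2, and that of PCNA (0.942) held the 5′ end of CDS2. At the MANE Select start GINS1 had no 3-hour origin, while POLD3 had one of 0.832 and PCNA one of 0.829, both of the low class. GINS3 and RFC5, with none at the record's end, had origins of 0.827 and 0.856 at the MANE Select start. The high values of GINS1, POLD3 and PCNA were thus measured at the record's 5′ end, and each of these origins also held a neighbour's 5′ end.

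Counted from the MANE Select start, 38 of 48 members again had a 3-hour origin (60.8% over protein-coding genes with such a start) and 20 had a 15-minute origin (43.2% over the same genes). RFC5 and GINS3 entered the 3-hour count and RPA2 and GINS1 left it. Leaving the 5 genes out, 35 of the other 43 members had a 3-hour origin at the record's 5′ end, 18 had one at 15 minutes, and the median efficiency was 0.907. This alternative was chosen after the data had been seen.

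Among licensing genes, 11 of 14 had a 3-hour 5′ origin (78.6%, 49.2 to 95.3%) but 4 of 14 a 15-minute one (28.6%, 8.39 to 58.1%). Their median efficiency was 0.894. The 4 with an origin at both times were MCM2, MCM6 and MCM7, subunits of the helicase, and CDT1, which brings the helicase to the origin recognition complex. These were also the 4 licensing genes in the high class.

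The origin recognition complex had 4 genes of 6 with a 3-hour 5′ origin. ORC1, the main ATPase of the complex, and ORC3 had no 3-hour origin within 2 kb of the 5′ end. ORC2 had an efficiency of 0.828, the lowest of the 38 members with an origin, over the 5′ UTR at chr2:200963201-200963900. ORC4 followed with 0.840 (300 bp), and both were of the low class. ORC6 had 0.873 and ORC5 0.8995 (300 bp), both of the medium class. None of the 6 genes had a high-class origin or a 15-minute origin (0 of 6, upper limit 45.9%, which lies above the shares of 31.4% and 40.4% over all protein-coding genes). At ORC2 and ORC3, moreover, no SNS-seq peak of either fraction lay within 2 kb. ORC2 was thus 1 of 2 members whose 5′ origin had no overlapping SNS-seq peak.

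CDC6, the ATPase that loads the helicase with ORC, had no 3-hour origin at its 5′ end, although 2 origins lay within 50 kb and both SNS-seq fractions had a peak within 2 kb. Its partner CDT1 had an origin of 1900 bp, the second longest 5′ origin among the members, with an efficiency of 0.921 over the 5′ UTR and coding sequence at chr16:88803301-88805200. The 15-minute origin of CDT1 was nearly as long, at 1800 bp, with a Z-score of -0.644. GMNN, which encodes geminin, the inhibitor of CDT1, had a medium-class origin of 0.847 over 500 bp and none at 15 minutes. Of this loader pair and its inhibitor, then, only the gene of CDT1 was in the 15-minute list.

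The 5 genes of the MCM helicase analysed here all had a 3-hour 5′ origin, from 0.885 to 0.955, and the sixth subunit was not analysed here. MCM2 was the highest of all licensing genes at 0.955 (chr3:127598101-127598800, over the 5′ UTR and coding sequence, and holding the 5′ end of TPRA1 on the other strand). MCM7 had 0.918 over 1700 bp, the third longest 5′ origin of the members, which also contained the 5′ end of AP4M1. MCM6 had 0.907, MCM5 0.894 and MCM3 0.885. The order by efficiency put MCM2 clear of the rest, and MCM3 and MCM5 were the 2 without a 15-minute origin. The Z-scores of the other 3 were negative, at -0.744 for MCM6, -0.848 for MCM7 and -1.27 for MCM2. MCM2 thus had a high 3-hour efficiency beside 1 of the lowest 15-minute Z-scores.

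Of the 12 firing genes, 8 had a 3-hour 5′ origin (66.7%, 34.9 to 90.1%) and 7 a 15-minute one (58.3%, 27.7 to 84.8%). All but 1 of the 8 origins were therefore also in the 15-minute list, where 4 of 11 licensing origins and 10 of 19 elongation origins were. Over all protein-coding genes this share was 68.2%. The median efficiency of the firing genes was 0.913. The intervals of the role groups overlap throughout, and a gene list of this size does not separate them.

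GINS1 (0.981), GINS2 (0.951) and DBF4 (0.943) had the 3 highest values. The GINS proteins are the 4 subunits of a ring-bound cofactor of the helicase, and DBF4 is the activating subunit of the CDC7 kinase. The origin of GINS2 lay inside the gene, centred 1022 bp from the record's 5′ end and thus near the MANE Select start, at chr16:85688701-85689400, with a 15-minute Z-score of 0.849. DBF4 shared its origin (chr7:87875701-87876500) with the 5′ end of SLC25A40, and its 15-minute Z-score of -1.33 was the third lowest. GINS3 and GINS4 had no 3-hour origin at the record's 5′ end, so the 4 subunits of this complex did not share a pattern.

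CDC45, the helicase cofactor loaded together with GINS, had the lowest efficiency of the firing genes, 0.844 over 1500 bp at chr22:19478801-19480300, and this origin also held the 5′ end of UFD1. CDC7, the catalytic subunit of the kinase, had 0.855 over 500 bp and was the 1 firing gene with a 3-hour origin but none at 15 minutes. TOPBP1, a scaffold for firing factors, had 0.901 and the lowest 15-minute Z-score of all members, -1.51. CDC45 and TOPBP1 were the 2 members with a medium-class origin that was also called at 15 minutes.

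TICRR (0.916, Z-score -0.254) and RECQL4 (0.911, Z-score 1.35) encode the firing factors treslin and a helicase related to RecQ. RECQL4, on chromosome 8, had the longest 5′ origin of the members at 2400 bp, and 15 origins of the 3-hour list lay within 50 kb of its 5′ end, more than at any other member. MTBP, the partner of treslin, had neither a 3-hour origin nor an SNS-seq peak at its 5′ end. MCM10, which helps to activate the helicase, had no ini-seq 2 origin but SNS-seq peaks of both fractions. Treslin and its partner thus differed in every list.

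Among elongation genes 19 of 22 had a 3-hour 5′ origin (86.4%, 65.1 to 97.1%), 10 of 22 a 15-minute one (45.5%, 24.4 to 67.8%), and 12 were of the high class. The median efficiency was 0.919. RFC3, RFC5 and RPA3 had none at the record's 5′ end.

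The members that encode subunits of the leading- and lagging-strand polymerases epsilon and delta were POLE, POLE2, POLD1, POLD2 and POLD3. All 5 had high-class origins, from 0.919 to 0.988, and all 5 were in the 15-minute list. Further subunits were taken in a separate list, and they differed. POLE4 had a high-class origin (0.935) and a 15-minute one. POLE3 was of the medium class (0.867) with none at 15 minutes, and POLD4 had no origin at the record's 5′ end. Over all protein-coding genes 31.4% had a high-class 5′ origin and 40.4% a 15-minute one. POLE, the catalytic subunit of polymerase epsilon, had the highest efficiency of all members, 0.988 over 1400 bp at chr12:132686701-132688100, and also the highest 15-minute Z-score, 1.46. That origin covered the 5′ UTR and coding sequence and held the 5′ end of PXMP2 on the other strand. POLD3 came second among elongation genes with 0.959, with the limit on its start given above, and POLD2 followed with 0.943 at chr7:44123301-44124100. At its MANE Select start POLD3 had no 15-minute origin.

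The 3 member genes of polymerase alpha and primase, which lay down the first primer, all had 3-hour 5′ origins. PRIM2, a further primase gene taken in a separate list, had none. POLA1 had 0.920, PRIM1 0.922 and POLA2 0.855, and none of the 3 was in the 15-minute list. POLA1 and PRIM1 were the 2 members with a high-class origin and no 15-minute origin, and both origins were 300 bp long, the shortest length in either ini-seq 2 list. Their 1 kb around the 5′ end held 60.2% and 55.4% GC.

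Of the clamp and its loader, PCNA, the sliding clamp, had 0.942 at the record's 5′ end with a 15-minute Z-score of 0.642, and 0.829 with -0.781 at the MANE Select start. RFC2, a subunit of the clamp loader, had 0.910 with a Z-score of -0.0416. RFC4 (0.834 over 500 bp at chr3:186806401-186806900) and RFC1 (0.844) were the 2 lowest of the elongation genes. RFC3 had no origin and no SNS-seq peak at its 5′ end. Of the 5 loader genes, RFC3 and RFC5 thus had no 3-hour origin at the record's 5′ end, and RFC4 was the only elongation gene whose most efficient 5′ origin was of the low class.

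RPA1 (0.942), the large subunit of the single-strand binding protein, had a 15-minute Z-score of 0.910, the third highest. RPA3, the small subunit, had no origin and no SNS-seq peak within 2 kb of its 5′ end, where the surrounding 1 kb held 30.7% GC, the lowest of the members. FEN1, the flap endonuclease, was the third lowest elongation gene with 0.845 and shared its origin with the 5′ ends of TMEM258 and FADS2. LIG1, the ligase that seals Okazaki fragments, had 0.926 over 1300 bp. Among genes of the fork itself, CLSPN had 0.908 with the second lowest Z-score, -1.37, TIMELESS 0.855 and WDHD1 0.889, and the last of these held the 5′ end of SOCS4.

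RPA2, the middle subunit, was counted through an origin unlike those of the other members. It lay upstream of the gene at chr1:27916701-27917200, with its centre at -2204 bp from the 5′ end, outside any annotated gene. It had an efficiency of 0.9065, at the upper limit of the medium class, but no SNS-seq peak and no 15-minute origin overlapped it, and its observed over expected CpG was 0.263, against a median of 0.863 for the 38 origins. Of its bases 90.8% were purines on 1 strand. The central 240 bases are shown on that strand, with runs of at least 3 G in capitals.
RPA2 (chr1:27916831-27917070, minus strand): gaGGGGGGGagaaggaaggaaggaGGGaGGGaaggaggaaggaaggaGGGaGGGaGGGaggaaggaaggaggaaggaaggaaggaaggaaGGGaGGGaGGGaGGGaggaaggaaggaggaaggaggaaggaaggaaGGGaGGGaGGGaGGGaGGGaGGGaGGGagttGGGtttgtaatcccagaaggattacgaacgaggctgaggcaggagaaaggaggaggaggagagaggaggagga
This run held 92.9% purines. The search counted 2 G4 motifs that do not overlap, each of 4 runs of at least 3 G parted by 1 to 7 bases. The parting bases could themselves hold G runs, so the count can be too low where many runs follow each other.

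**Figure D2:**
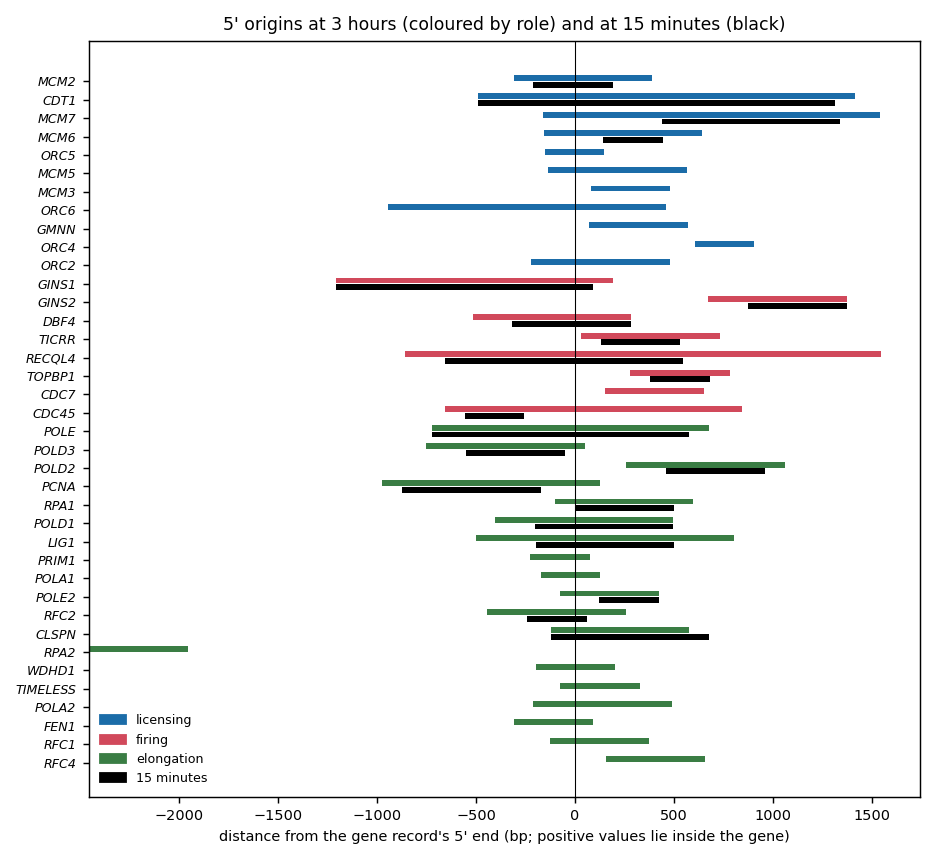
Position of the 3-hour 5′ origin (coloured by role) and the 15-minute 5′ origin (black) of each of the 38 members with a 3-hour origin, in bp from the 5′ end of the gene record, with positive values inside the gene. The origins cluster around the 5′ end, the 15-minute origins lie on the 3-hour ones, and RPA2 stands alone at -2204 bp.

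The 21 members with origins at both times allow the 2 measures to be set side by side. The 3-hour origin was longer than the 15-minute one in 20 of 21 genes, with a median length ratio of 1.60, and CLSPN was the exception at 700 bp against 800 bp. Over all protein-coding genes the median length was 900 bp for 3-hour 5′ origins and 700 bp for 15-minute ones. The paper describes origins shared by both times as larger at the later one. Neither the share nor the ratio was counted over all protein-coding genes, so no trait of the members is shown. The rank correlation of efficiency with the Z-score was 0.44 over these 21 genes (Pearson r 0.47) and 0.36 over the 7854 protein-coding genes with both. The points share a caller and base composition, and the value is a description. The Z-score was above 0 in 8 of the 21, against 55.2% of all protein-coding genes with a 15-minute 5′ origin, and the median was -0.622 beside 0.144. The interval of the members' median, -0.885 to 0.642, includes the value of all genes. POLE and RECQL4 formed the top, and TOPBP1, CLSPN, DBF4 and MCM2 the bottom.

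**Figure D3:**
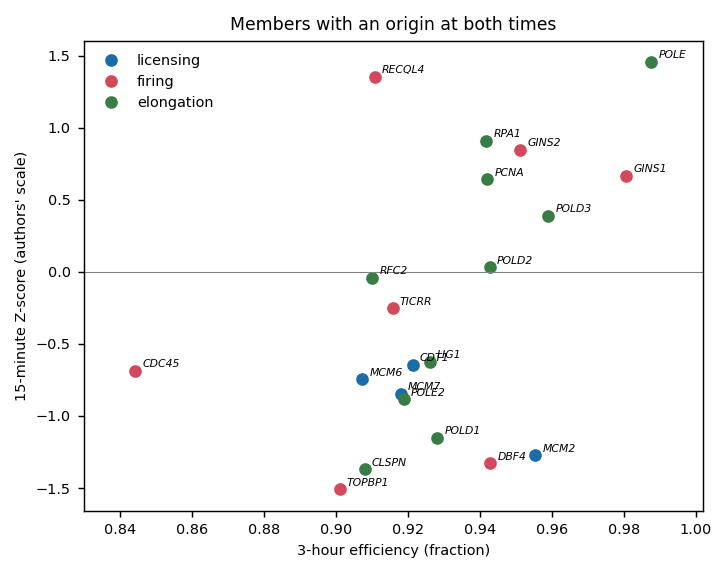
15-minute Z-score on the authors' scale against 3-hour efficiency (fraction) for the 21 members with a 5′ origin at both times, coloured by role. POLE is highest on both axes, while DBF4 and MCM2 have efficiencies of 0.943 and 0.955 with Z-scores of -1.33 and -1.27.

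Whether a 3-hour origin was also called at 15 minutes went with its class. In the high class 19 of 21 members' origins were in the 15-minute list (90.5%), beside 91.1% over all protein-coding genes. In the medium class 2 of 14 were (14.3%, 1.78 to 42.8%), beside 49.6%. In the low class none of 3 was, beside 13.1%. The 17 members with a 3-hour origin alone had a median efficiency of 0.855 and a median length of 500 bp, and the 21 with both had 0.926 and 800 bp.

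**Figure D4:**
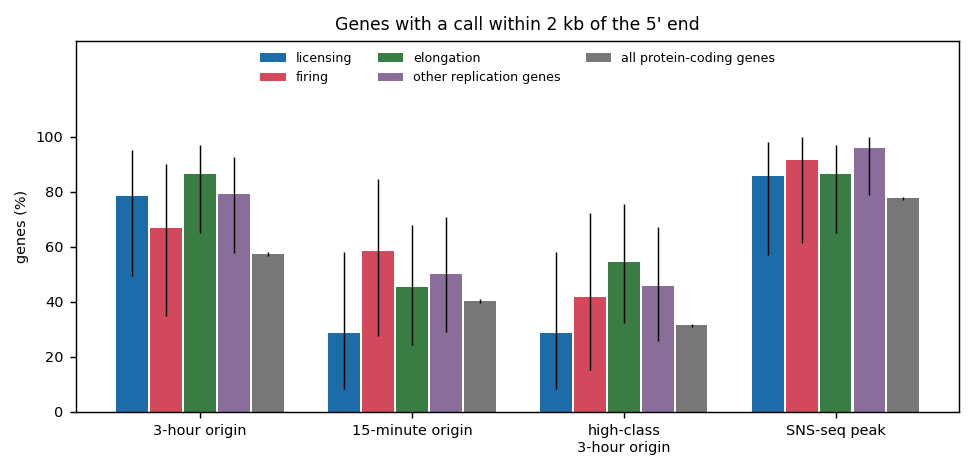
Percentage of genes with a 3-hour origin, a 15-minute origin, a high-class 3-hour origin or an SNS-seq peak within 2 kb of the 5′ end, for the 3 roles, 24 other replication genes and all protein-coding genes. Lines are exact 95% intervals, which cover counting error only. The licensing genes have the lowest bar at 15 minutes (28.6%) and the firing genes the highest (58.3%), with wide overlapping intervals.

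Inside the genes, more than 2 kb from the 5′ end, a 3-hour origin was found in 7 of 48 members (14.6%, 6.07 to 27.8%), where 26.0% of all protein-coding genes had one. With the 5′ origins, 40 members had a 3-hour origin in all (66.4% over all protein-coding genes). There were 11 such inner origins, with efficiencies from 0.813 to 0.878, and none was of the high class. POLD1 had 4, centred between 18196 and 32696 bp from its 5′ end, the longest of them 4400 bp at its 3′ end, where it also held the 5′ end of SPIB. RECQL4 had 2, both over coding sequence. The remaining 5 lay at the MANE Select starts of GINS3, POLD3, PCNA and RFC5 and in an intron of POLA2. Of the 11, 2 were in the 15-minute list, those of PCNA and RFC5. The class and 15-minute calls of inner origins were not counted over all protein-coding genes. These counts therefore do not show a trait of the members. No licensing gene had an inner origin. Longer genes have more room for one, and the licensing genes were the shortest role group, with a median length of 24.7 kb. The median was 45.4 kb for firing genes and 44.5 kb for elongation genes. It was 35.3 kb for all members, beside 27.5 kb over all protein-coding genes. The part of gene length was not tested.

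Base composition was set beside the calls. The 1 kb around the 5′ end held a median of 53.9% GC in the 10 members with no 3-hour origin (30.7 to 62.9%), 57.9% in the 17 with a 3-hour origin alone (51.5 to 64.4%) and 62.2% in the 21 with both (47.1 to 78.0%). The 3 ranges overlap, and TOPBP1 at 47.1% and GINS2 at 50.6% had origins at both times. Their MANE Select starts lie 439 and 1119 bp inside the records, and the 1 kb around those held 57.6% and 66.6% GC. At 55 to 60% GC, 10 of 14 members had a 3-hour origin, where 54.2% of all protein-coding genes did, and 3 had a 15-minute origin, where 20.9% did. At 60 to 65% the counts were 14 of 15, beside 81.3%, and 8 of 15, beside 46.9%. At 50 to 55% GC, 6 of 8 members had a 3-hour origin, where 28.8% of all protein-coding genes did. Around the MANE Select start GINS2, POLD2, RFC4, MCM3 and GINS3 of these 8 held over 55%, and ORC5, TIMELESS and MTBP did not. The part of base composition in the calls was not tested.

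**Figure D5:**
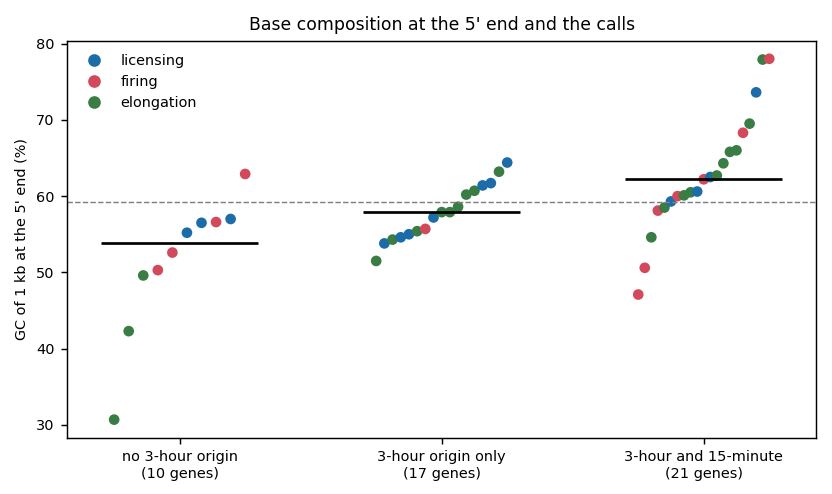
GC content (%) of the 1 kb around the 5′ end for members with no 3-hour 5′ origin, with a 3-hour origin alone, and with origins at both times, coloured by role. Black lines are the medians of 53.9, 57.9 and 62.2%, and the dashed line is the median of 59.2% over all protein-coding genes.

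The 38 origins had a median of 67.8% GC, beside 69.0% over all protein-coding genes with a 3-hour 5′ origin, and a median observed over expected CpG of 0.863 beside 0.792. A G4 motif was present in 26 of 38 (68.4%, 51.3 to 82.5%), beside 77.9%. In the promoter window, 250 bases before to 50 after the 5′ end, the E2F letters were found at 14 of 48 members (29.2%, 17.0 to 44.1%), beside 3.82% of all protein-coding genes. The window at the MANE Select start had them at 21 of 48 (43.8%, 29.5 to 58.8%), beside 4.36%. These letters can overlap GGGCGG by a few bases.

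MCM6 had 4 matches to the E2F letters at the record's 5′ end, MCM5 3 and MCM2 2, and MCM3 had 1. In MCM2 they lie outside the run printed above. At the MANE Select start MCM7 had 2 as well, so that all 5 helicase genes held them there. Of the 14 members with the letters 11 had a 3-hour origin and 6 a 15-minute one, against 27 and 15 of the 34 without. CDC6, RFC3 and MTBP were the 3 with the letters and no 3-hour origin. A match is a match of letters and says nothing of binding. CCAAT was found at 24 members (35.2 to 64.8%, beside 35.9%) and GGGCGG at 28 (58.3%, beside 52.4%).

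A head-to-head protein-coding partner, with its 5′ end within 1 kb on the other strand, was found for 20 of 48 members (41.7%, 27.6 to 56.8%), beside 13.4% of all protein-coding genes. Of these 20, 16 had a 3-hour origin (75.8% over all protein-coding genes with a partner) and 11 a 15-minute one (48.3%). Of the 28 without, 22 (54.7% over all protein-coding genes without) and 10 (39.2%) did. The median efficiency was 0.924 with a partner and 0.904 without, where over all protein-coding genes it was 0.9 with and 0.915 without. Among the 38 origins, 16 also held the 5′ end of another annotated gene, and such an origin cannot be assigned to 1 of the 2 genes. That count takes genes of any type, unlike the count of partners. It was not made over all protein-coding genes, so whether it is unusual is not known.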

How the data were processed

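The data were 4 lists on hg38 from EJ30 cells, 1 list per condition. The genomic DNA input library was not analysed here. The authors aligned reads with Bowtie2, kept unique alignments, removed duplicates, and joined windows enriched for HL over LL reads. At 3 hours the authors deposited the efficiency as a fraction, under a heading that calls it a Z-score. At 15 minutes the deposited value is a score, the Z-score of efficiency over that list. SNS-seq peaks were called with MACS2 and the deposited lists hold positions only. No list holds counts.

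Genes were the protein-coding records of GENCODE 44. An origin belonged to a 5′ end when the gap was at most 2 kb, and the most efficient one was taken. SNS-seq fractions were joined where they overlapped. Role lists and classes follow the text. The interval assignment and motif search were tested on simulated data. Values are given for each member with no 3-hour 5′ origin, the 3 highest and 3 lowest efficiencies per role, the 3 highest and 3 lowest Z-scores, members whose class and 15-minute call part, the 3 longest 5′ origins and the 3 genes with most inner origins. Members and lists were chosen with earlier results of these data known. Alternatives were other distances and starts, other role assignments, each SNS-seq fraction, and members without a partner gene. Sequence came from hg38. Scripts ran under Python 3.11.15 with pandas 2.3.3, numpy 2.4.6, matplotlib 3.10.9 and scipy 1.17.1.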

Additional observations from a re-analysis of the deposited data

How the results depend on the processing

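Shares and medians were recomputed under 64 alternatives for 18 results, and 62 of the values stayed within the 95% interval of the value reported (for a median, the exact interval of its order statistics). The 2 that did not came from requiring the 5′ end to lie inside the origin, which left 58.3% of members with a 3-hour origin and 22.9% with a 15-minute one. That alternative is stricter by construction. With 14, 12 and 22 genes in a role these intervals are wide, so staying inside them says little about the order of the roles. Replacing the gene record by the MANE Select start was added after the data had been seen. It gave 79.2% of members at 3 hours, 41.7% at 15 minutes and a median efficiency of 0.9002, and moved firing genes at 15 minutes from 7 to 6 of 12. The share of members with a high-class origin went from 43.8% to 37.5%. Without members that have a partner gene, 35.7% had a 15-minute origin. The depth behind each origin is unknown, and origins could not be called again at equal depth at the 2 times. Leaving out a replicate was not possible because each condition has 1 list. No paired analysis was possible because the replicates were pooled or are not given apart in the lists.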

Other observations

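Of 24 further replication genes, taken as a separate list, 19 had a 3-hour 5′ origin (79.2%, 57.8 to 92.9%), 12 a 15-minute one (29.1 to 70.9%) and 23 an SNS-seq peak within 2 kb of the 5′ end. Over all protein-coding genes the shares were 57.5%, 40.4% and 77.7%. Their efficiencies ran from 0.842 to 0.967 with a median of 0.928. CHAF1B, a subunit of the chromatin assembly factor that places histones behind the fork, was highest at 0.967 (15-minute Z-score 0.812), and its partner subunit CHAF1A had 0.932. CHTF18 (0.954), DSCC1 (0.946) and CHTF8 (0.940), the 3 subunits particular to an alternative clamp loader, were all of the high class and all in the 15-minute list, with Z-scores of 0.284, 0.841 and 0.388. ATAD5, which unloads PCNA, had 0.853 over 300 bp, with neither a 15-minute origin nor an SNS-seq peak within 2 kb of its 5′ end. DBF4B, MCMBP, PCLAF, POLD4 and PRIM2 had no 3-hour origin at the record's 5′ end. At the MANE Select start, 19713 bp into its record, MCMBP had an efficiency of 0.933 and a 15-minute Z-score of 2.09, and POLD4 had 0.827 at its own. TIPIN had 0.928 at the record's 5′ end and 0.824 at the MANE Select start. TOP2A (0.890), RIF1 (0.8998), DNA2 (0.848) and POLE3 (0.867) were of the medium class with none at 15 minutes. At the record's 5′ end DONSON had the highest 15-minute Z-score of this list, 1.04.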
